A study of Mus musculus with 16 samples.

Results

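The genes described here encode the complement and coagulation proteins that the liver secretes into plasma, with a few of their regulators, 45 genes of the 53372 in the count table. They were taken by gene symbol, and each symbol matched 1 row. All 45 passed the filter on low counts, under which 17810 genes were tested. RNA was sequenced from livers of FVB/NCrl mice, a strain label shared by every sample, after exposure to diphenyl phosphate (DPhP), a phosphate diester formed in the body from aryl phosphate flame retardants. The 4 groups had no DPhP (untreated, CTRL), 0.1 mg/L, 1 mg/L or 10 mg/L DPhP, which the labels name C1, C2 and C3. Groups are called by their concentration here, because C2 and C3 are also genes of the set. The livers of each group were pooled into 1 extract and 4 libraries were made from each pool as analytical replicates, so n = 4 counts libraries and not animals. The p-values measure the spread between libraries of a pool, and pool and concentration cannot be told apart. The sources used here give neither the route and length of exposure nor the age and number of the animals pooled. In whole-tissue RNA, fewer cells of a type and less RNA per cell cannot be told apart.

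Complement is a cascade of plasma proteases and binding proteins. Antibody and C1 start the classical pathway, mannose-binding lectins start the lectin pathway, and the alternative pathway runs on C3 and factor B. All of them converge on cleavage of C3, after which C5 to C9 assemble into the membrane attack complex. Coagulation runs through proteases such as factors XI, X and prothrombin to thrombin, which turns fibrinogen into fibrin, and plasmin dissolves the clot again. Hepatocytes make most of these proteins, and several of them, C3 and fibrinogen among them, are acute phase proteins whose genes respond to cytokines through C/EBP and STAT factors.

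The libraries held between 14434761 and 45109243 counts. Libraries 3 and 4 of the 1 mg/L pool and library 4 of the 10 mg/L pool stood apart from the other 13. Levels are given as CPM, read counts scaled to library size by TMM. Averaged over the nuclear-retained RNAs Kcnq1ot1, Malat1, Neat1 and Xist, the log2 CPM of these 3 libraries was 10.2, 10.1 and 9.97, and that of no other library passed 9.39. All libraries at 0.1 mg/L (9.02 to 9.39) and 10 mg/L (9.10 to 9.97) lay above all CTRL libraries (8.44 to 9.01). Leaving the 3 out does not remove this difference from CTRL. Of the 4 RNAs, 3 were then called higher at 0.1 mg/L, 1 at 1 mg/L and 3 at 10 mg/L (6.52%, 12.7% and 2.41% of all genes). The summed level of 10 hepatocyte markers, Alb among them, was 29766, 36348 and 35066 CPM in these 3 libraries and at least 51065 CPM in each of the others. No hepatocyte marker was at 0. Results are given with all 16 libraries, and the genes whose call against CTRL changes without these 3 libraries are named.

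As a share of all counts, the 45 genes held 2.84 ± 0.189% in CTRL, 2.34 ± 0.115% at 0.1 mg/L, 1.95 ± 0.408% at 1 mg/L and 2.63 ± 0.259% at 10 mg/L (SD, n = 4 each). The libraries of the 0.1 and 1 mg/L pools all lay below all CTRL libraries, and those of the 10 mg/L pool overlapped them. Protein-coding genes held 59.4% (library 4 of the 1 mg/L pool) to 87.7% of the counts of a library. As a share of protein-coding counts the set held 3.30 ± 0.131%, 2.92 ± 0.0866%, 2.56 ± 0.181% and 3.09 ± 0.239% in the same order. The fall and the spread at 1 mg/L were smaller on that base, and the same pools lay below CTRL. Per kb of exon, the fibrinogen chains Fgg, Fgb and Fga were the highest of the set (847, 700.5 and 620.4 CPM per kb over all libraries), followed by C3 (562 CPM per kb). The lowest were C5ar1 (0.836), Masp1 (2.52) and C6 (3.11 CPM per kb).

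At 1 mg/L, 13 of the 45 genes fell and 1 rose against CTRL (edgeR quasi-likelihood test, Benjamini-Hochberg adjusted p under 0.05 over all genes tested). Of all genes tested, 10.2% fell and 8.03% rose in the same comparison (18.3% in either direction). Rises were 43.9% of these calls, and 58.5% with upper-quartile scaling, under which the set had 13 falls and 1 rise. The genes that fell were C1ra, C4b, Masp1, C3, Cfb, Clu, Fga, F2, F5, F11, F12, Hrg and Serpinf2, and the one that rose was C8a. At 0.1 mg/L, C3, C1ra and F11 fell and C8a rose, 4 of 45 genes, against 2.32% of all genes in either direction, 0.938% higher and 1.39% lower. At 10 mg/L, F11 fell and C8a rose, 2 of 45 genes, against 1.4% of all genes, 0.522% higher and 0.876% lower. C8a and F11 were thus called in all 3 comparisons with CTRL, 14 genes in at least 1 and 31 in none. The comparisons share the CTRL libraries, so these are not independent counts.

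The median log2 fold change of the set was -0.06 at 0.1 mg/L, -0.37 at 1 mg/L and -0.15 at 10 mg/L, where the median of all genes tested lay between 0.004 and 0.029. Libraries that do not overlap at all give a count free of the model. All 4 treated libraries lay below all 4 CTRL libraries for 15 genes at 0.1 mg/L, 16 at 1 mg/L and 7 at 10 mg/L, where 10.1%, 12.6% and 7.25% of all genes did. They lay above for 4, 1 and 2 genes, where 8.03%, 8.12% and 5.53% of all genes did. By mean CPM the 1 mg/L pool was the lowest of the 4 for 29 genes, and CTRL was the highest for 27, where 30.1% and 31.7% of all genes had that order. With the 3 libraries described above left out, these counts were 15 and 19 (36.0% and 27.8% of all genes), and the 1 mg/L pool was the highest for 16 in place of 3 (30.3% in place of 36.0% of all genes).

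**Figure D1:**
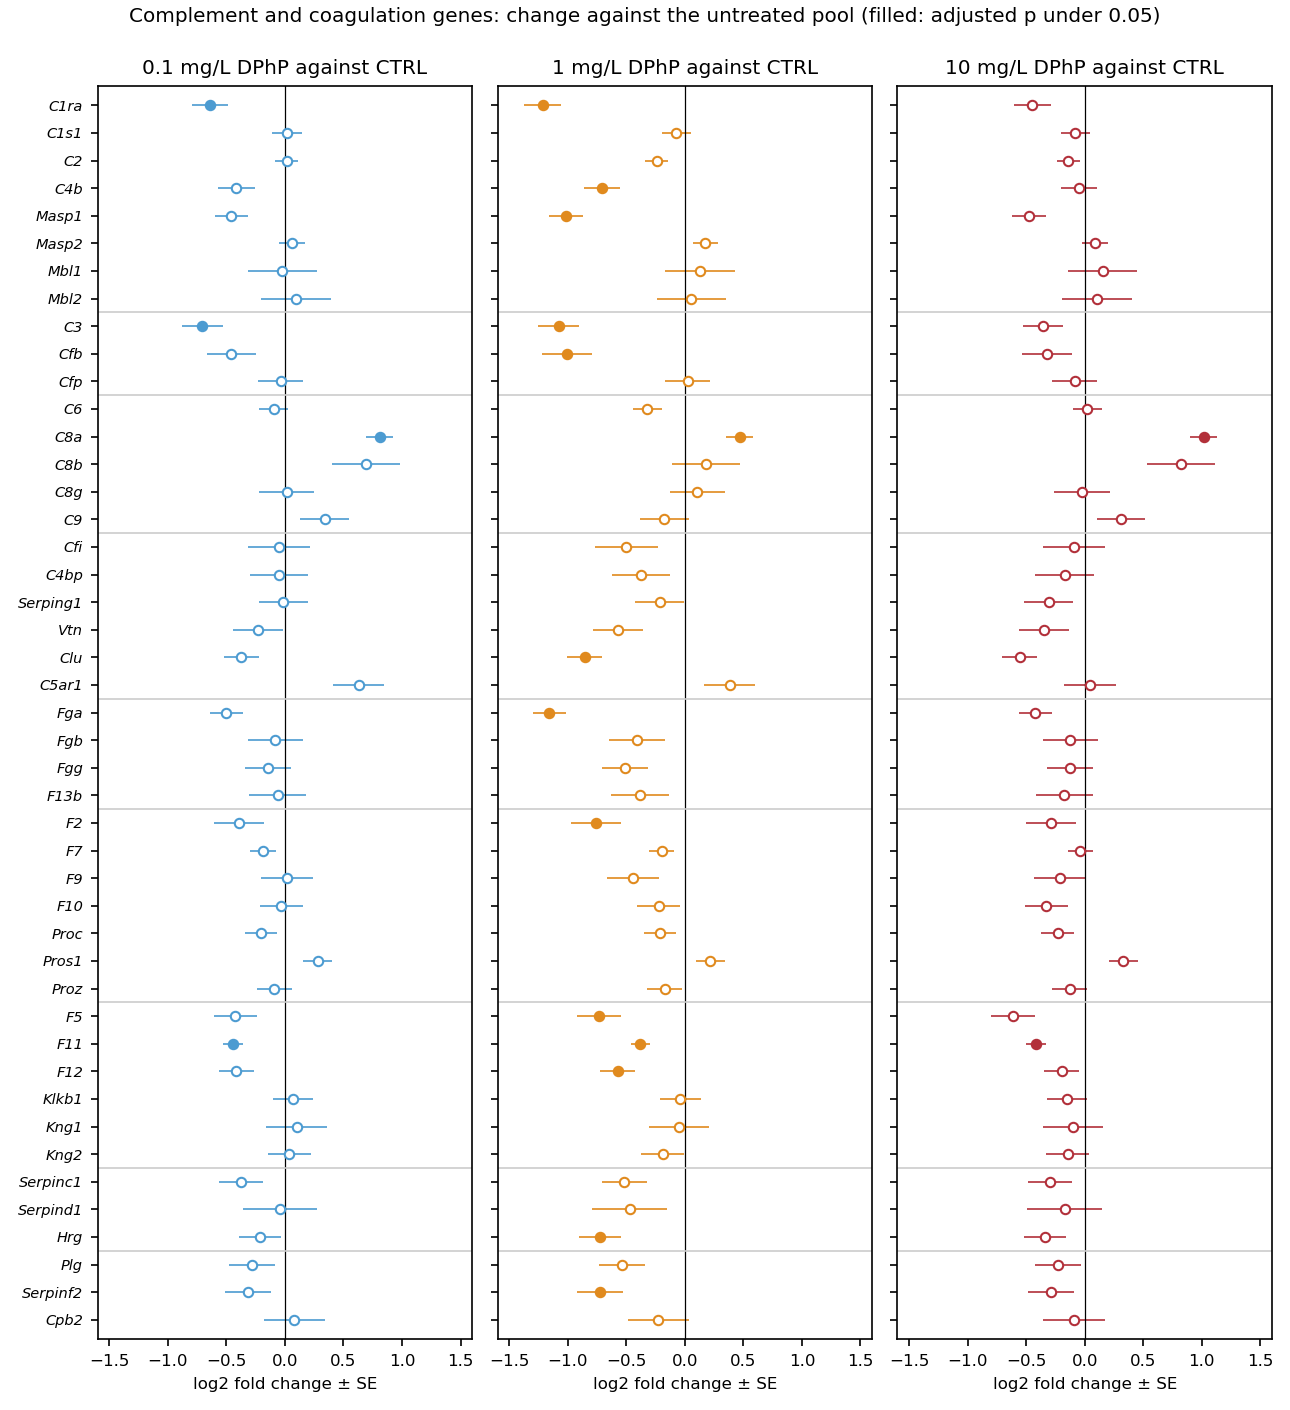
Log2 fold change ± SE (x axis) of each of the 45 genes (y axis, in the order of their roles, lines separate the roles) in the 0.1, 1 and 10 mg/L pools against CTRL, from edgeR on 4 libraries per pool; filled points have an adjusted p under 0.05. The 1 mg/L panel holds 14 filled points, 13 of them left of 0, and C8a is filled right of 0 in all 3 panels.

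Without the 3 libraries rich in nuclear-retained RNA, the counts grew in all 3 comparisons with CTRL. None of the 3 is a CTRL or 0.1 mg/L library, so that comparison holds the same libraries in both models. Its median over the set was -0.06 with all libraries and -0.07 without the 3. The SE, from a spread estimated over all groups, was smaller (for C4b 0.156 and 0.095). Calls were thus added at 0.1 mg/L with fold changes nearly the same. The 1 mg/L pool keeps only libraries 1 and 2 in this reduced model. At 1 mg/L 14 genes fell and 9 rose, where 15.3% of all genes fell and 12.7% rose. The 13 falls and the 1 rise called with all libraries were all called again. The 3 libraries were set apart by their values in these data, and the libraries kept are in both models. These repeated calls are thus not independent. The adjusted p of the reduced model, here and below, does not allow for that choice. F7 (log2 fold change -0.34 ± 0.09, adjusted p = 0.00527) was the further fall. The 8 further rises were C8b, Mbl1, Mbl2, C8g, Pros1, Kng1, Cfp and Klkb1, with log2 fold changes of 0.28 to 0.70. The median of the set at 1 mg/L was then 0.01 in place of -0.37. At 0.1 mg/L 15 genes fell and 4 rose (8.04% and 6.52% of all genes), and at 10 mg/L 5 fell and 4 rose (3.68% and 2.41%). The 12 further falls at 0.1 mg/L were C4b, Masp1, Cfb, Clu, Fga, F2, Proc, F5, F12, Serpinc1, Plg and Serpinf2, with log2 fold changes of -0.51 to -0.21. The 4 further falls at 10 mg/L were Masp1, Clu, Fga and F5, with -0.52 to -0.35. The genes that rose in the reduced model at 0.1 and at 10 mg/L were C8a, C8b, C9 and Pros1 in both.

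Within the 1 mg/L pool, libraries 3 and 4 both lay below libraries 1 and 2 for 36 of the 45 genes, as they did for 34.1% of all genes tested. The mean of libraries 3 and 4 was 0.639 times that of libraries 1 and 2 at the median gene of the set and 1.08 times at the median of all genes, with a range in the set of 0.346 (Serpind1) to 1.52 (Masp1). In the 10 mg/L pool, library 4 lay below the other 3 libraries for 38 genes, as it did for 34.9% of all genes. The summed hepatocyte markers and the nuclear-retained RNAs moved with this split, and their part in the levels of the set was not tested.

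**Figure D2:**
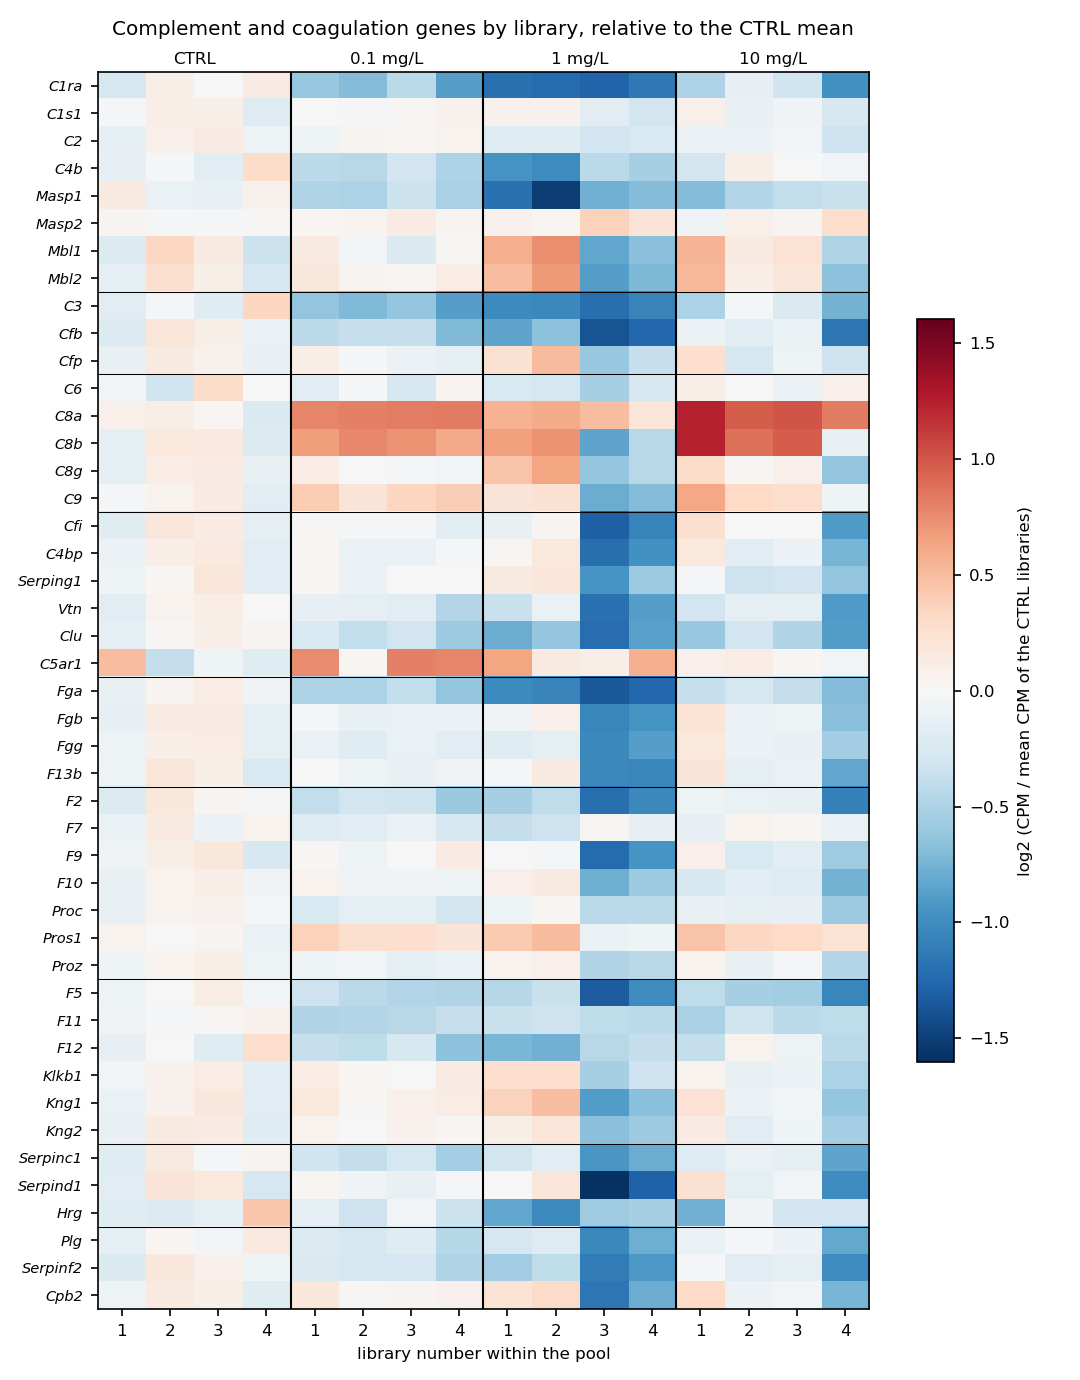
Level of each gene (rows, in the order of their roles) in each library (columns, 4 per pool) as log2 of its CPM over the mean CPM of the CTRL libraries; blue is lower and red is higher. Libraries 3 and 4 of the 1 mg/L pool and library 4 of the 10 mg/L pool are blue for most genes, C1ra, C3 and Fga are blue in all 4 libraries of the 1 mg/L pool, and C8a is red in all 12 treated libraries.

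**Figure D3:**
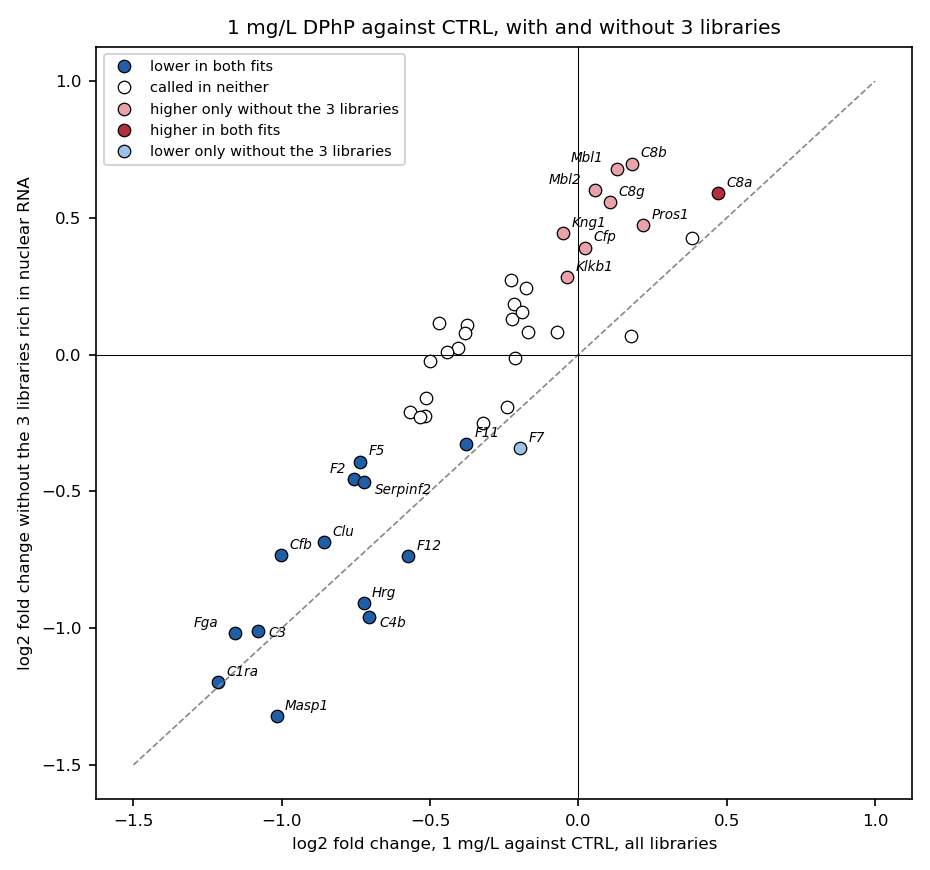
Log2 fold change of the 45 genes at 1 mg/L against CTRL with all 16 libraries (x axis) and without the 3 libraries rich in nuclear-retained RNA (y axis); the dashed line marks equal values and colours give the calls. The 13 genes lower in both lie in the lower left, and the 8 genes called higher only in the reduced model lie between -0.05 and 0.22 on the x axis and between 0.28 and 0.70 on the y axis.

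In the classical and lectin pathways, which hold 8 of the genes, C1ra, C4b and Masp1 fell at 1 mg/L, C1ra fell at 0.1 mg/L and none was called at 10 mg/L. C1ra encodes the C1r protease that activates C1s within the C1 complex. It had 175, 223, 211 and 229.8 CPM in CTRL, 138, 130.0, 155 and 114 CPM at 0.1 mg/L, 91.9, 89.2, 86.1 and 94.6 CPM at 1 mg/L and 148, 192, 169 and 107 CPM at 10 mg/L, libraries 1 to 4 of each pool in order here and below. All libraries of the 0.1 and 1 mg/L pools lay below all CTRL libraries, and the 1 mg/L libraries lay below all others. Its log2 fold change was -0.64 ± 0.15 at 0.1 mg/L (adjusted p = 0.0345), -1.21 ± 0.16 at 1 mg/L (adjusted p = 9.24e-05) and -0.45 ± 0.15 at 10 mg/L (adjusted p = 0.168). The call at 0.1 mg/L was lost when any of 6 of the 8 libraries compared was left out (all but library 1 of CTRL and library 3 of the 0.1 mg/L pool), and the call at 1 mg/L was kept throughout. Of the 50-base windows in the C1ra transcripts, 50.8% also occur in other genes, most of them in the near-identical copy C1rb, so part of its count may belong to C1rb.

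C1s1, the protease that C1r cuts, lies 6901 bases from C1ra on chromosome 6 and had 453 ± 13.5 CPM at 0.1 mg/L and 426 ± 52.1 CPM at 1 mg/L, against 448 ± 42.8 CPM in CTRL (SD, n = 4 each). Its log2 fold change at 1 mg/L was -0.07 ± 0.13 (adjusted p = 0.720). The ratio of C1ra to C1s1 counts per kb within a library was 0.496 ± 0.0875 in CTRL, 0.312 ± 0.0430 at 0.1 mg/L, 0.226 ± 0.0324 at 1 mg/L and 0.381 ± 0.0842 at 10 mg/L. The ratios of the 0.1 and 1 mg/L libraries lay below all CTRL ratios. Of the C1s1 windows 35.1% are shared, mainly with C1s2.

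Masp1, a protease that starts the lectin pathway, had 37.1, 31.2, 30.9 and 35.1 CPM in CTRL, 24.1, 23.7, 26.5 and 23.5 CPM at 0.1 mg/L, 14.7, 11.8, 19.6 and 20.7 CPM at 1 mg/L and 20.7, 24.2, 25.5 and 26.2 CPM at 10 mg/L. All 12 treated libraries lay below all CTRL libraries, and libraries 1 and 2 of the 1 mg/L pool were the lowest of all. Masp1 differed from CTRL by -0.46 ± 0.14 on the log2 scale at 0.1 mg/L (adjusted p = 0.114), -1.02 ± 0.15 at 1 mg/L (adjusted p = 0.000217) and -0.48 ± 0.14 at 10 mg/L (adjusted p = 0.111). In the model without the 3 libraries it was called lower in all 3 pools, with -1.32 ± 0.11 at 1 mg/L. C4b, whose product is the mouse C4 that forms the classical C3 convertase with C2, averaged 448 ± 89.1 CPM at 1 mg/L, against 730.2 ± 112 CPM in CTRL (log2 fold change -0.71 ± 0.16, adjusted p = 0.00550). At 0.1 mg/L it was called lower in the reduced model (-0.42 ± 0.10, adjusted p = 0.00345; 0.190 with all libraries). Of its windows 34.6% are shared with C4a, which fell as well.

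Of the other lectin and classical genes, C2 (the protease subunit of that convertase) had log2 fold changes between -0.24 and 0.01 and Masp2 (the lectin protease that cuts C4 and C2) between 0.06 and 0.18 across the 3 pools, none of them called. Of the Masp2 windows 52.5% are shared with Tardbp, whose exons overlap those of Masp2 on the opposite strand. Mbl1 and Mbl2, the mannose-binding lectins that recognise microbial sugars, split within the 1 mg/L pool. Mbl1 had 211, 237, 79.3 and 88.8 CPM at 1 mg/L, against 121, 177, 155 and 111 CPM in CTRL. Mbl2 had 715, 814, 275 and 309 CPM at 1 mg/L, against 458, 609, 544 and 422 CPM in CTRL. For both genes libraries 1 and 2 of the 1 mg/L pool lay above all CTRL libraries and libraries 3 and 4 below them, so that the fold change over the whole pool averages opposite values. In the reduced model both were called higher at 1 mg/L, Mbl1 by 0.68 ± 0.16 (adjusted p = 0.00564) and Mbl2 by 0.60 ± 0.13 (adjusted p = 0.000957).

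Of the 3 genes of the alternative pathway, C3 and Cfb fell at 1 mg/L, C3 fell at 0.1 mg/L and none was called at 10 mg/L. C3, whose product is cut in every complement pathway, had 3566, 3945, 3516 and 5104 CPM in CTRL, 2614, 2461, 2629 and 2193 CPM at 0.1 mg/L, 1990.4, 1979.7, 1742 and 1925 CPM at 1 mg/L and 2846, 3929.7, 3449 and 2379 CPM at 10 mg/L. Every library of the 0.1 and 1 mg/L pools lay below every CTRL library, and the 1 mg/L libraries, the 3 libraries rich in nuclear-retained RNA included or not, lay below those at 0.1 mg/L. The 10 mg/L libraries overlapped CTRL. On the log2 scale C3 differed from CTRL by -0.70 ± 0.17 at 0.1 mg/L (adjusted p = 0.0385), -1.08 ± 0.17 at 1 mg/L (adjusted p = 0.000569) and -0.36 ± 0.17 at 10 mg/L (adjusted p = 0.327). The call at 0.1 mg/L ended whichever of the 8 libraries was left out, with adjusted p between 0.0536 and 0.164, and the call at 1 mg/L was kept each time.

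Cfb encodes factor B, the protease of the alternative C3 convertase, and had 733, 977, 909 and 792 CPM in CTRL, 640.0, 660.2, 661 and 524 CPM at 0.1 mg/L, 476, 541, 328 and 357 CPM at 1 mg/L and 799, 753, 789 and 384 CPM at 10 mg/L. The treated libraries of the 0.1 and 1 mg/L pools lay below all CTRL libraries, and at 10 mg/L libraries 1 to 3 lay among the CTRL libraries with library 4 far below. The fitted level at 1 mg/L was 0.499 times that in CTRL (SE 0.21 on the log2 scale, adjusted p = 0.00428), and the log2 fold change was -0.73 ± 0.11 without the 3 libraries. At 0.1 mg/L the adjusted p was 0.299, and 0.000987 without the 3 libraries (-0.47 ± 0.09). C2 lies 85 bases from Cfb on chromosome 17 and was not called (log2 fold change -0.24 ± 0.10, adjusted p = 0.0886). Of the Cfb windows 73.0% also occur in Gm20547, an annotated read-through of the pair, and 41.5% of the C2 windows are shared, so reads could be divided differently by another counter. Cfp encodes properdin, which stabilises the alternative convertase and is made mainly by leukocytes. Its log2 fold changes lay between -0.08 and 0.02.

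**Figure D4:**
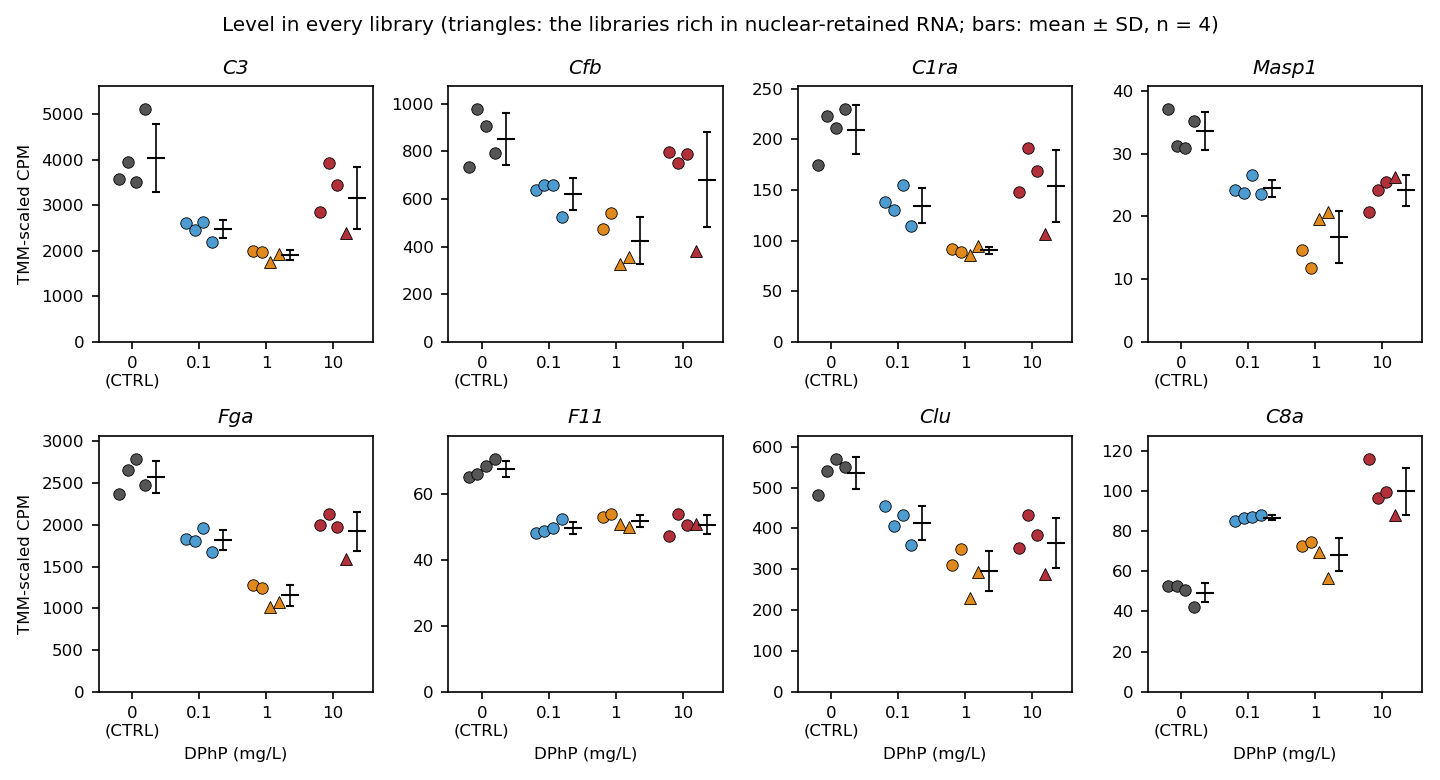
TMM-scaled CPM (y axes, from 0) of C3, Cfb, C1ra, Masp1, Fga, F11, Clu and C8a in each of 4 libraries at 0, 0.1, 1 and 10 mg/L DPhP (x axes); triangles are the 3 libraries rich in nuclear-retained RNA and bars the mean ± SD. C3 and C1ra are lowest at 1 mg/L in circles and triangles alike, F11 lies below CTRL in all 12 treated libraries, and C8a lies above CTRL in all 12.

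The 5 genes of the terminal pathway encode proteins of the membrane attack complex. C8a rose in all 3 pools, and none fell. C8a, the alpha chain of C8, had 52.5, 52.5, 50.5 and 42.1 CPM in CTRL, 85.0, 86.5, 87.2 and 87.9 CPM at 0.1 mg/L, 72.7, 74.7, 69.7 and 56.4 CPM at 1 mg/L and 116, 96.5, 99.5 and 88.0 CPM at 10 mg/L. All 12 treated libraries lay above all CTRL libraries, and the 10 mg/L pool held the highest values. C8a rose 1.75-fold at 0.1 mg/L, 1.39-fold at 1 mg/L and 2.02-fold at 10 mg/L. The log2 fold changes were 0.81 ± 0.12 (adjusted p = 0.000874), 0.47 ± 0.12 (adjusted p = 0.0104) and 1.02 ± 0.12 (adjusted p = 0.000194), and each call was kept with any 1 library left out.

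C8b, the beta chain, lies 11130 bases from C8a on chromosome 4, on the opposite strand. It had 34.9, 43.6, 43.1 and 33.3 CPM in CTRL, 61.8, 66.1, 63.5 and 58.8 CPM at 0.1 mg/L, 60.8, 63.7, 21.5 and 28.5 CPM at 1 mg/L and 91.1, 71.2, 75.8 and 35.7 CPM at 10 mg/L. Libraries 1 and 2 at 1 mg/L and 1 to 3 at 10 mg/L lay above all CTRL libraries, the 3 libraries rich in nuclear-retained RNA did not, and at 0.1 mg/L all 4 lay above CTRL. With all libraries no change was called (log2 fold changes 0.69 ± 0.29, 0.18 ± 0.29 and 0.82 ± 0.29 at 0.1, 1 and 10 mg/L, adjusted p = 0.249, 0.694 and 0.182). The model without the 3 libraries called C8b higher in all 3 pools, by 0.68 ± 0.09, 0.70 ± 0.11 and 1.03 ± 0.10 on the log2 scale. Within each library the ratio of C8a to C8b per kb was 1.05, 0.844, 0.820 and 0.886 in CTRL, 0.963, 0.916, 0.960 and 1.05 at 0.1 mg/L, 0.836, 0.820, 2.27 and 1.39 at 1 mg/L and 0.891, 0.948, 0.919 and 1.72 at 10 mg/L. Apart from the 3 libraries, with the highest ratios of all, the values lay between 0.820 and 1.05.

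C8g, the gamma chain, is encoded on chromosome 2 and was not called in any pool with all libraries (log2 fold changes 0.01, 0.11 and -0.02 at 0.1, 1 and 10 mg/L). The ratio of C8a to C8g per kb was 0.0861, 0.0710, 0.0678 and 0.0671 in CTRL, 0.115, 0.126, 0.131 and 0.133 at 0.1 mg/L, 0.0781, 0.0709, 0.157 and 0.113 at 1 mg/L and 0.139, 0.140, 0.138 and 0.201 at 10 mg/L. The ratios at 0.1 and 10 mg/L lay above all CTRL ratios, while libraries 1 and 2 at 1 mg/L lay among them. C9, which forms the ring of the pore, averaged 204 ± 12.8 CPM at 0.1 mg/L, against 162 ± 14.7 CPM in CTRL, and was called higher at 0.1 and 10 mg/L only without the 3 libraries (0.33 ± 0.08 and 0.41 ± 0.09). C6, which joins C5b at the start of the complex, had log2 fold changes of -0.32 to 0.02 with no call.

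The sequences just before the starts of C3, C8a and C8b are shown because C3 fell where C8a rose and the C8 pair lie side by side. They are taken from RefSeq on GRCm38.p6, each 250 bases ending at the base before the gene, 5′ to 3′ on the strand of the gene. C3 is chr17:57228137-57228386 (minus strand), C8a chr4:104876399-104876648 (minus) and C8b chr4:104766067-104766316 (plus). Capitals mark matches on either strand to TTGCNNAA, a C/EBP motif, GTTAAT, the core of the HNF1 motif, and TTCNNNGAA, a STAT motif, where N is any base.
C3: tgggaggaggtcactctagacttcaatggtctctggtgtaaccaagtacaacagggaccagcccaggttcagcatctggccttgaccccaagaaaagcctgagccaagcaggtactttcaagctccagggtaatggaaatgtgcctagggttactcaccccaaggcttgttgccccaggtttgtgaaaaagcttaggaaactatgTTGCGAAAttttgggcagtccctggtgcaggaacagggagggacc
C8a: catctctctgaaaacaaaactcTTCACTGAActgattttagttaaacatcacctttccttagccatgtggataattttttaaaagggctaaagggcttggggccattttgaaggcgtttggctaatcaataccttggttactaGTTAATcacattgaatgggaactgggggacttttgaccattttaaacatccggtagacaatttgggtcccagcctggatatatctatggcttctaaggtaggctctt
C8b: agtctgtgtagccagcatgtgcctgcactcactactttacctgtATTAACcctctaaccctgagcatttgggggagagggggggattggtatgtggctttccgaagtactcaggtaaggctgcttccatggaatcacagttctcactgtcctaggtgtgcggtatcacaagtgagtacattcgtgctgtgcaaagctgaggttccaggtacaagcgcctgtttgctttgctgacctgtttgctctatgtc
C3 held 1 C/EBP match, C8a 1 HNF1 and 1 STAT match, and C8b 1 HNF1 match on the other strand. Over the 250 bases before all 32851 RefSeq starts, 9.56% held the C/EBP motif, 6.43% the HNF1 core and 7.02% the STAT motif. Of the 37 starts of 35 genes of the set found in that table, 10 held the C/EBP motif (27.0%), 10 the HNF1 core (27.0%) and 6 the STAT motif (16.2%). Starts of 1 gene can overlap, and a match is only a match of letters.

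Among the 6 genes of complement regulators and the C5a receptor, Clu fell at 1 mg/L and no other was called against CTRL. Clu encodes clusterin, which binds the terminal complex in plasma and also acts as an extracellular chaperone. It had 481, 542, 569.8 and 551 CPM in CTRL, 454, 407, 434 and 359.6 CPM at 0.1 mg/L, 310.3, 349.6, 229.8 and 294 CPM at 1 mg/L and 352, 432, 385 and 288 CPM at 10 mg/L. All 12 treated libraries lay below all CTRL libraries. Clu differed by -0.37 ± 0.15 on the log2 scale at 0.1 mg/L (adjusted p = 0.225), -0.86 ± 0.15 at 1 mg/L (adjusted p = 0.00114) and -0.56 ± 0.15 at 10 mg/L (adjusted p = 0.0778). Clu was called lower in all 3 pools once the 3 libraries were left out.

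Cfi (factor I, the protease that cuts C3b and C4b), C4bp (its cofactor for C4b), Serping1 (the C1 inhibitor) and Vtn (vitronectin, which binds the forming terminal complex) followed the split between libraries. Cfi had 405, 455, 179 and 211 CPM at 1 mg/L, against 385, 502, 482 and 397 CPM in CTRL, so that libraries 1 and 2 lay among the CTRL values and libraries 3 and 4 below all of them. Log2 fold changes at 1 mg/L were -0.50 for Cfi, -0.37 for C4bp, -0.22 for Serping1 and -0.57 for Vtn with all libraries, and -0.02, 0.11, 0.18 and -0.21 without the 3, with no call in either model. C5ar1, the C5a receptor of myeloid cells, was read at 2.72 ± 0.615 CPM at 0.1 mg/L, against 1.76 ± 0.497 CPM in CTRL (log2 fold change 0.63 ± 0.22, adjusted p = 0.154).

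The 3 fibrinogen chains are secreted together in 1 molecule. Fga, the alpha chain, fell at 1 mg/L, and Fgb (beta) and Fgg (gamma) were not called. Fga had 2364, 2660.3, 2788 and 2483 CPM in CTRL, 1827, 1811, 1966 and 1677 CPM at 0.1 mg/L, 1274, 1243, 1018 and 1079 CPM at 1 mg/L and 1992, 2135, 1971 and 1588 CPM at 10 mg/L. All 12 treated libraries lay below all CTRL libraries and the 4 libraries at 1 mg/L below all others. The log2 fold change was -0.50 ± 0.14 at 0.1 mg/L (adjusted p = 0.0726), -1.16 ± 0.14 at 1 mg/L (adjusted p = 5.59e-05) and -0.42 ± 0.14 at 10 mg/L (adjusted p = 0.149). Fga, too, was called lower in all 3 pools in the reduced model (-0.51 ± 0.08, -1.02 ± 0.10 and -0.35 ± 0.08).

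Fgb had 2693, 3236, 3236 and 2641 CPM in CTRL, 2919, 2724, 2734 and 2774 CPM at 0.1 mg/L, 2831, 3121, 1434 and 1517 CPM at 1 mg/L and 3424, 2774, 2786 and 1855 CPM at 10 mg/L. Fgg had 1905, 2148, 2189.8 and 1821 CPM in CTRL, 1866, 1765, 1873 and 1782 CPM at 0.1 mg/L, 1756, 1818, 984 and 1091 CPM at 1 mg/L and 2258, 1887, 1862 and 1375 CPM at 10 mg/L. For both chains libraries 3 and 4 at 1 mg/L and library 4 at 10 mg/L lay below all CTRL libraries. Library 1 at 10 mg/L lay above all CTRL libraries for both. The other treated libraries lay within the CTRL range for Fgb. For Fgg libraries 1 and 2 at 1 mg/L and libraries 2 and 4 at 0.1 mg/L lay just below it. Their log2 fold changes at 1 mg/L were -0.41 ± 0.24 (adjusted p = 0.234) for Fgb and -0.51 ± 0.20 (adjusted p = 0.0779) for Fgg, and 0.03 ± 0.11 and -0.16 ± 0.10 without the 3 libraries.

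The ratio of Fga to Fgb per kb of exon compares the chains inside each library, free of scaling. It was 1.11, 1.04, 1.09 and 1.19 in CTRL, 0.792, 0.841, 0.911 and 0.765 at 0.1 mg/L, 0.570, 0.504, 0.899 and 0.900 at 1 mg/L and 0.737, 0.974, 0.896 and 1.08 at 10 mg/L. The ratios at 0.1 and 1 mg/L lay below all CTRL ratios, and the lowest were in libraries 1 and 2 at 1 mg/L, which are not among the 3 libraries set apart. The ratio of Fgg to Fgb averaged 1.25 ± 0.0339 in CTRL, 1.19 ± 0.0389 at 0.1 mg/L, 1.19 ± 0.113 at 1 mg/L and 1.25 ± 0.0672 at 10 mg/L (SD, n = 4 each), and the pools overlapped. F13b, the carrier subunit of the fibrin-crosslinking factor XIII, had log2 fold changes of -0.06, -0.38 and -0.17 at 0.1, 1 and 10 mg/L with no call.

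**Figure D5:**
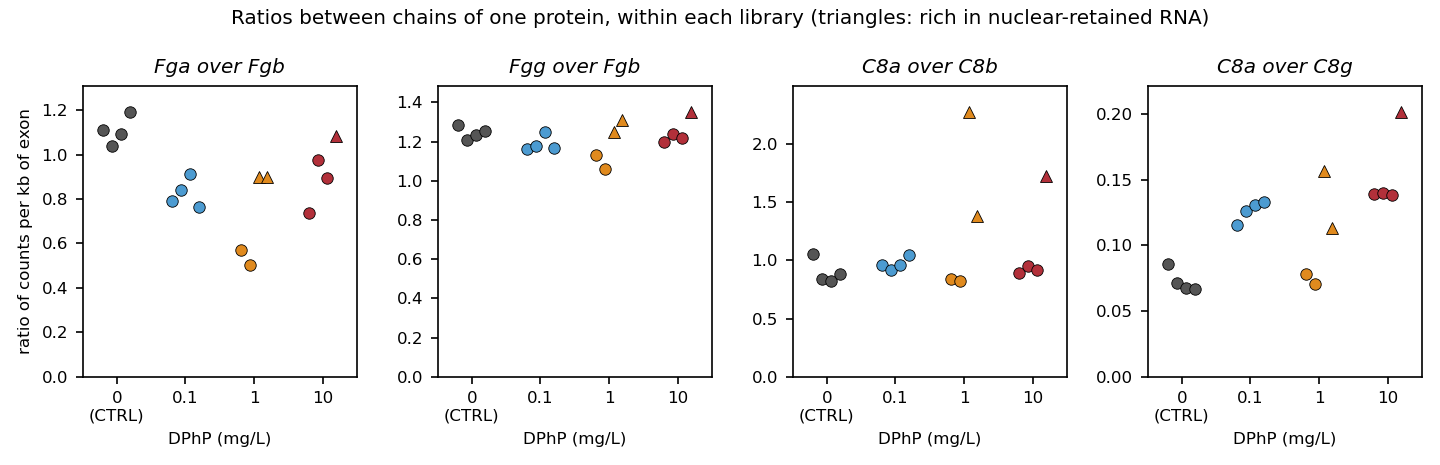
Ratios of counts per kb of exon within each library (y axes, from 0) for Fga over Fgb, Fgg over Fgb, C8a over C8b and C8a over C8g at 0, 0.1, 1 and 10 mg/L DPhP (x axes, 4 libraries each); triangles are the 3 libraries rich in nuclear-retained RNA. Fga over Fgb reaches 0.504 at 1 mg/L against at least 1.04 in CTRL, Fgg over Fgb stays between 1.06 and 1.35, and the C8a over C8b ratio is high in the triangles alone.

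The fibrinogen genes lie together on chromosome 3, with Fgg 11026 bases before Fga and Fga 6513 bases from Fgb, which is on the opposite strand. The sequences before their starts are shown because Fga fell and its neighbours were not called. They are from RefSeq on GRCm38.p6 with the marks explained for C3, Fga chr3:83025903-83026075 (plus strand, 173 bases, cut where the annotated gene begins), Fgb chr3:83049864-83050113 (minus) and Fgg chr3:83007474-83007723 (plus).
Fga: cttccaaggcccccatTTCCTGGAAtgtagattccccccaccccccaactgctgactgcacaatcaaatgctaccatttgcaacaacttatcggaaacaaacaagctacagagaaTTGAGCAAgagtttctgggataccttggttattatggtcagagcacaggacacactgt
Fgb: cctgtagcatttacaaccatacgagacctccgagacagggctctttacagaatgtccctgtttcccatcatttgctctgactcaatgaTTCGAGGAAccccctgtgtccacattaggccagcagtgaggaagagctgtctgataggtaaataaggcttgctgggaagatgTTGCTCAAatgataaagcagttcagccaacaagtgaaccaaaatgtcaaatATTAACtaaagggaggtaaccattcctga
Fgg: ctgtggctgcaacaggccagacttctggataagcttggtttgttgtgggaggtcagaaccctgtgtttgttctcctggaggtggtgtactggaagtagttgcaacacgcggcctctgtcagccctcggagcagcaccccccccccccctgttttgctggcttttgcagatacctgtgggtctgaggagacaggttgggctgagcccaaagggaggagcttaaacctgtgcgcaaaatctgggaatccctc
The sequences shown for Fga and Fgb each held a C/EBP and a STAT match, and that of Fgb an HNF1 match. The full 250 bases before the RefSeq start of Fga also held an HNF1 match, outside the 173 bases shown. Fgg held 0 matches in this window.

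Of the 7 vitamin K dependent genes, F2 fell at 1 mg/L. F2 encodes prothrombin, the precursor of thrombin, and had 1005, 1332, 1205 and 1151 CPM in CTRL, 894, 958, 941 and 774 CPM at 0.1 mg/L, 814, 882, 508 and 575 CPM at 1 mg/L and 1107, 1089, 1085 and 557 CPM at 10 mg/L. All libraries at 0.1 and 1 mg/L lay below all CTRL libraries. The log2 fold change was -0.40 ± 0.21 at 0.1 mg/L (adjusted p = 0.382), -0.76 ± 0.21 at 1 mg/L (adjusted p = 0.0220) and -0.29 ± 0.21 at 10 mg/L (adjusted p = 0.534). The call at 1 mg/L was lost without library 2 or 3 of CTRL or library 3 or 4 of the 1 mg/L pool, one at a time, with adjusted p of at most 0.0773. It was kept when the 3 libraries were left out together (-0.45 ± 0.11, adjusted p = 0.00220), and F2 was then also called lower at 0.1 mg/L (-0.41 ± 0.09, adjusted p = 0.00195).

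The other 6 were not called in any pool with all libraries. F7, which starts the tissue factor pathway, averaged 70.8 ± 9.27 CPM at 1 mg/L, against 81.1 ± 6.91 CPM in CTRL. F9 and F10, the proteases that lead to prothrombin activation, had log2 fold changes of -0.44 and -0.22 at 1 mg/L. F7, F10 and Proz are neighbours on chromosome 8, with gaps of 1498 and 4237 bases. Proc (protein C, an anticoagulant protease) and Proz (protein Z, the cofactor of a factor Xa inhibitor) had -0.22 and -0.17 there. Proc was called lower at 0.1 mg/L in the reduced model (-0.21 ± 0.07, adjusted p = 0.0384). Pros1 (protein S, the cofactor of protein C) had 32.3 ± 1.55 CPM at 0.1 mg/L and 33.5 ± 2.24 CPM at 10 mg/L, against 26.6 ± 1.41 CPM in CTRL. All libraries of those pools lay above all CTRL libraries. Its adjusted p was 0.275 and 0.200, and 0.0130 and 0.00541 without the 3 libraries.

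Of the 6 genes of the cofactor and contact system, F11 fell in all 3 pools, F5 and F12 fell at 1 mg/L, and Klkb1, Kng1 and Kng2 were not called. F11 encodes factor XI, which activates factor IX, and had 65.1, 66.1, 68.6 and 70.7 CPM in CTRL, 48.3, 48.7, 49.6 and 52.4 CPM at 0.1 mg/L, 53.0, 53.9, 51.0 and 49.9 CPM at 1 mg/L and 47.3, 54.1, 50.5 and 51.1 CPM at 10 mg/L. All 12 treated libraries lay between 47.3 and 54.1 CPM, below the lowest CTRL library, and the 3 libraries rich in nuclear-retained RNA lay with the others. F11 differed by -0.44 ± 0.08 on the log2 scale at 0.1 mg/L (adjusted p = 0.00836), -0.38 ± 0.08 at 1 mg/L (adjusted p = 0.00528) and -0.41 ± 0.08 at 10 mg/L (adjusted p = 0.0183). The call at 10 mg/L was lost when any of 6 of the 8 libraries was left out (library 2, 3 or 4 of CTRL, or 1, 3 or 4 of the 10 mg/L pool), with adjusted p of at most 0.0749.

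F5, the cofactor of factor Xa, averaged 468 ± 28.5 CPM in CTRL, 349 ± 15.8 CPM at 0.1 mg/L, 281 ± 86.2 CPM at 1 mg/L and 306 ± 54.7 CPM at 10 mg/L. All 12 treated libraries lay below all CTRL libraries, and the fall was called at 1 mg/L (log2 fold change -0.73 ± 0.19, adjusted p = 0.0121) and, without the 3 libraries, in all 3 pools. F12, which starts the contact pathway, fell by 0.57 ± 0.15 on the log2 scale at 1 mg/L (adjusted p = 0.0144). That call was lost without library 4 of CTRL (adjusted p = 0.0583), which held the highest F12 value of all libraries. F12 was called lower at 0.1 mg/L in the reduced model (-0.42 ± 0.10, adjusted p = 0.00798). Klkb1 (prekallikrein), 4657 bases from F11 on chromosome 8, averaged 339.9 ± 15.2 CPM at 0.1 mg/L, against 323 ± 29.5 CPM in CTRL. Of its windows 42.7% are shared with Gm45753. Kng1, a kininogen and the source of bradykinin, had 2037, 2220.0, 847 and 996 CPM at 1 mg/L, against 1463, 1661, 1788 and 1405 CPM in CTRL, with libraries 1 and 2 above and libraries 3 and 4 below all CTRL libraries. The ratio of its copy Kng2 to Kng1 per kb was 0.159, 0.156, 0.224 and 0.204 at 1 mg/L, against 0.192, 0.201, 0.186 and 0.189 in CTRL, so that libraries 1 and 2 lay below and libraries 3 and 4 above the CTRL range.

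Of the 3 inhibitors of coagulation, Hrg fell at 1 mg/L. Hrg encodes histidine-rich glycoprotein, which binds heparin and plasminogen, and had 335, 328, 347 and 521 CPM in CTRL, 345, 303, 371 and 302 CPM at 0.1 mg/L, 215, 189, 258 and 265 CPM at 1 mg/L and 224, 368, 309 and 309.9 CPM at 10 mg/L. All 4 libraries at 1 mg/L lay below all CTRL libraries, and library 4 of CTRL stood above every other library. On the log2 scale the difference was -0.21 ± 0.18 at 0.1 mg/L (adjusted p = 0.612), -0.72 ± 0.18 at 1 mg/L (adjusted p = 0.0104) and -0.34 ± 0.18 at 10 mg/L (adjusted p = 0.367). Serpinc1 (antithrombin) had log2 fold changes of -0.38, -0.52 and -0.30 and Serpind1 (heparin cofactor II) of -0.04, -0.47 and -0.17 at 0.1, 1 and 10 mg/L, with no call. All 4 libraries of the 0.1 mg/L pool lay below CTRL for Serpinc1, and without the 3 libraries it was called lower there (-0.39 ± 0.08). Of the Serpinc1 windows 33.6% are shared, mainly with Zbtb37.

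Of the 3 genes of fibrinolysis, Serpinf2 fell at 1 mg/L. It encodes alpha-2-antiplasmin, the inhibitor of plasmin, and had 522, 694, 647 and 580.4 CPM in CTRL, 519.8, 501, 508 and 436 CPM at 0.1 mg/L, 415, 462, 281 and 322 CPM at 1 mg/L and 605, 543, 555 and 303 CPM at 10 mg/L. All libraries at 0.1 and 1 mg/L lay below all CTRL libraries, narrowly so in library 1 of the 0.1 mg/L pool. The log2 fold change was -0.31 ± 0.20 at 0.1 mg/L (adjusted p = 0.470), -0.72 ± 0.20 at 1 mg/L (adjusted p = 0.0182) and -0.28 ± 0.20 at 10 mg/L (adjusted p = 0.506). The 1 mg/L call was lost without library 2 of CTRL or library 3 or 4 of the 1 mg/L pool, with adjusted p of at most 0.0697. Without the 3 libraries together Serpinf2 was called lower at 0.1 mg/L too (-0.32 ± 0.09, adjusted p = 0.0125). Plg, the plasminogen that plasmin is cut from, averaged 1006 ± 269 CPM at 1 mg/L, against 1457 ± 129 CPM in CTRL (log2 fold change -0.54 ± 0.20, adjusted p = 0.0649), and was called lower at 0.1 mg/L in the reduced model (-0.29 ± 0.08, adjusted p = 0.0133). Cpb2 (a carboxypeptidase that slows fibrinolysis) had a log2 fold change of -0.23 at 1 mg/L and was not called.

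Between the treated pools, 5 genes of the set were higher at 10 than at 1 mg/L and none lower, where 1.17% of all genes were higher and 0.27% lower. These were C1ra (0.77 ± 0.16, adjusted p = 0.0194), Fga (0.74 ± 0.14, adjusted p = 0.0134), C8a (0.55 ± 0.12, adjusted p = 0.0241), C4b (0.66 ± 0.16, adjusted p = 0.0457) and C3 (0.72 ± 0.17, adjusted p = 0.0461), all on the log2 scale. All 4 libraries at 10 mg/L lay above all 4 at 1 mg/L for each of the 5 and for C6, 6 genes in all, where 3.5% of all genes did, and below for 0 genes (2.12% of all genes). No call was left without library 2, or without library 3, of the 10 mg/L pool. Without library 1 of the 1 mg/L pool 2 genes were called. With the 3 libraries rich in nuclear-retained RNA left out, 11 genes were higher and 6 lower (7.84% and 6.49% of all genes). At 1 against 0.1 mg/L, Fga was lower (-0.66 ± 0.14, adjusted p = 0.0177), where 2.06% of all genes were called, 0.477% higher and 1.58% lower, and the call was lost without library 1, 2 or 3 of the 0.1 mg/L pool or library 3 or 4 of the 1 mg/L pool. All 4 libraries at 1 mg/L lay below all 4 at 0.1 mg/L for 8 genes and above for 0 (6.15% and 3.41% of all genes), and with the 3 libraries left out 6 genes were lower and 5 higher (9.43% and 9.3% of all genes). At 10 against 0.1 mg/L, edgeR called 0 genes of the set, where 0.87% of all genes were called (0.354% higher and 0.517% lower), 2 had an unadjusted p under 0.05, and DESeq2 called 0. The libraries did not overlap for 2 genes that were higher and 1 that was lower (3.63% and 4.33% of all genes). In the reduced model C4b, C3 and C8b were higher and none lower (1.68% and 1.73% of all genes).

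Other genes of the same pathways were read beside the set. Of 28 tested complement genes outside it, 0 rose and 1 fell at 0.1 mg/L, 4 rose and 6 fell at 1 mg/L, and 0 were called at 10 mg/L, where 8 had an unadjusted p under 0.05. Of 26 tested coagulation and plasma inhibitor genes, 2 rose and 6 fell at 1 mg/L and 0 were called at 0.1 and 10 mg/L, where 9 and 11 had an unadjusted p under 0.05. Of all genes tested, 0.938% rose and 1.39% fell at 0.1 mg/L, 8.03% and 10.2% at 1 mg/L, and 0.522% and 0.876% at 10 mg/L. No share of all genes is given for the unadjusted p, so those counts cannot be read against one. C1rb, the copy of C1ra that shares sequence windows with it, averaged 58.9 ± 8.54 CPM in CTRL, 37.6 ± 5.75 CPM at 0.1 mg/L and 26.4 ± 2.07 CPM at 1 mg/L. C1rb fell in both pools (-0.65 ± 0.16, adjusted p = 0.0416, and -1.16 ± 0.16, adjusted p = 0.000202). Pzp, a protease inhibitor of the alpha-2-macroglobulin family, had 1458 ± 309 CPM at 1 mg/L, against 3232 ± 231 CPM in CTRL (-1.15 ± 0.18, adjusted p = 0.000553). Itih2, a heavy chain of the inter-alpha-trypsin inhibitors, fell as well (-0.96 ± 0.18, adjusted p = 0.00189). F2rl2, a thrombin receptor, was read below 2 CPM on average in each pool and rose at 1 mg/L (1.23 ± 0.38, adjusted p = 0.0317), a call lost without the 3 libraries. C4a, named here for its sequence windows shared with C4b and chosen after its values were seen, fell at 1 mg/L (-0.65 ± 0.15, adjusted p = 0.00724).

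Of 22 transcription factors and signalling genes known to act on genes of the acute phase or of hepatocytes, 0 rose and 3 fell at 0.1 mg/L, 1 rose and 3 fell at 1 mg/L, and 0 were called at 10 mg/L (3 with an unadjusted p under 0.05). Of all genes tested, 0.938% rose and 1.39% fell at 0.1 mg/L. At 1 mg/L 18.3% of all genes were called (8.03% rose and 10.2% fell), near the share of this list. At 10 mg/L 1.4% were called. The genes named next were picked by size of change, and the 1 that rose is not among them. Hnf4a, a master regulator of hepatocyte genes, averaged 397 ± 39.1 CPM in CTRL, 291 ± 7.55 CPM at 0.1 mg/L, 256 ± 13.8 CPM at 1 mg/L and 345 ± 35.4 CPM at 10 mg/L. It fell at 0.1 mg/L (-0.45 ± 0.12, adjusted p = 0.0490) and at 1 mg/L (-0.63 ± 0.12, adjusted p = 0.0015). Cebpd, a C/EBP factor of the acute phase, fell at 0.1 mg/L (-0.80 ± 0.15, adjusted p = 0.00869), with 3.26 ± 0.537 CPM at 0.1 mg/L, against 5.65 ± 0.623 CPM in CTRL. Its level was 3.99 ± 0.561 CPM at 1 mg/L and 5.29 ± 0.418 CPM at 10 mg/L. Onecut1, another liver factor, fell at 0.1 mg/L (-0.67 ± 0.13, adjusted p = 0.00911). Whether these genes act on the set was not tested.

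Markers of liver cell types were also read. At 1 mg/L 8.03% of all genes tested rose and 10.2% fell, and sinusoidal endothelium was the only list with most of its markers called there. Of 10 markers of sinusoidal endothelium, 8 rose and 0 fell at 1 mg/L, and 0 were called at 0.1 and 10 mg/L (4 rose at 0.1 mg/L in the reduced model, and 4 and 1 had an unadjusted p under 0.05 at 0.1 and 10 mg/L). Their summed level was 164 to 176 CPM in CTRL, 194 to 211 CPM at 0.1 mg/L, 238 to 285 CPM at 1 mg/L and 177 to 222 CPM at 10 mg/L. Of 10 hepatocyte markers 1 fell at 0.1 mg/L, 5 at 1 mg/L and 0 at 10 mg/L (3 with an unadjusted p under 0.05). Hnf4a, given above among the transcription factors, is the 1 at 0.1 mg/L and is among the 5 at 1 mg/L. Without the 3 libraries 4, 4 and 6 of these hepatocyte markers fell, and 1 rose at 1 mg/L. Their sum was 64884 to 77553 CPM in CTRL, 60951 to 68296 CPM at 0.1 mg/L, 29766 to 70183 CPM at 1 mg/L and 35066 to 60264 CPM at 10 mg/L. Of 10 Kupffer cell and macrophage markers 2 fell at 1 mg/L, with a sum of 236 to 381 CPM there, against 314 to 412 CPM in CTRL. Stellate cell markers summed to 185 to 196 CPM in CTRL, 199 to 215 CPM at 0.1 mg/L, 191 to 277 CPM at 1 mg/L and 189 to 208 CPM at 10 mg/L, and 1 of 10 rose at 1 mg/L (3 in the reduced model). Neutrophil markers summed to 4.48 to 7.57 CPM at 10 mg/L, against 2.40 to 3.64 CPM in CTRL. None of the 3 tested was called there by edgeR, 3 had an unadjusted p under 0.05, and 1 rose in the reduced model. At 1 mg/L 0 of these 3 were called, and 0 of the 3 tested platelet and megakaryocyte markers. No marker in any list was at 0 in all libraries. The part of these markers in the levels of the complement and coagulation genes was not tested.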

How the data were processed

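Liver RNA (RNeasy) was selected for poly(A) and made into strand-marked NEBNext libraries, per the labels' protocols. GRCm38 is the build in the submitters' processing notes, with the tools STAR 2.5.2b, FastQC 0.11.5 and bcl2fastq 2.19.1.403. No source used here names the program that counted reads, its strand setting or its annotation, so counts of copies and of overlapping genes are uncertain. The authors deposited raw counts per gene, not normalised, for 16 libraries.

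The filterByExpr rule left 17810 of the 32916 genes with any count. Raw counts, with TMM factors as offsets, entered 1 edgeR 4.0.16 quasi-likelihood model (R 4.3.3, robust, group as the only term, 12 residual degrees of freedom, common biological coefficient of variation 0.189). An adjusted p under 0.05 (Benjamini-Hochberg) was called. SE is the log2 fold change over the square root of F. Lengths are exon unions of GENCODE M21. Shared sequence was searched in 50-base windows of its transcripts, and 28 of the 45 genes shared none. Libraries of a pool differed by more than counting noise (chi-square per degree of freedom 5.92 to 814 over 24 pairs).

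The 45 genes, the lists and the rules were chosen with earlier results of these data known. Values per library are given for called genes among the 7 largest changes of a comparison, the 3 highest per kb and, in roles left out by these, the gene with the smallest adjusted p, and up to 4 other pathway genes were named per comparison. C8b and others given per library were added after their values were seen. Alternatives were 2 other scalings, 2 other filters, DESeq2 1.42.0, only the 2 groups compared, a replicate block, each library left out and the 3 libraries left out, and protein-coding genes alone, added after seeing the data.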

Additional observations from a re-analysis of the deposited data

Results flagged for a closer look

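In 52 groups of 4 libraries (13 genes in 4 pools), 4 held a library whose gap to its nearest neighbour exceeded Dixon's 95% critical value as a share of the range, and about 1 in 20 would by chance. Cfb was 524 CPM in library 4 of the 0.1 mg/L pool, against 640.0 to 661 CPM in the other 3. Cfb was also 384 CPM in library 4 of the 10 mg/L pool, against 753 to 799 CPM in its others. F2 was 557 CPM in the same library, against 1085 to 1107 CPM. Hrg was 521 CPM in library 4 of CTRL, against 328 to 347 CPM in the other CTRL libraries. Library 4 of the 10 mg/L pool is one of the 3 libraries rich in nuclear-retained RNA, and the cause of these values was not tested.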

How the results depend on the processing

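Counts are of genes of the set first and of all genes after it, and the cause of a change was not tested. Without the 3 libraries rich in nuclear-retained RNA, 19 and 2688 genes were called at 0.1 mg/L against CTRL, 23 and 5177 at 1 mg/L, 9 and 1125 at 10 mg/L, 11 and 3459 at 1 against 0.1 mg/L, 3 and 630 at 10 against 0.1 mg/L, and 17 and 2645 at 10 against 1 mg/L. With all libraries the counts were 4 and 414, 14 and 3254, 2 and 249, 1 and 366, 0 and 155, and 5 and 257 in that order. In models of only the 2 groups compared they were 18 and 2557 at 0.1 mg/L and 7 and 1492 at 1 mg/L against CTRL, 0 and 93 at 1 against 0.1 mg/L, and 0 and 14 at 10 against 1 mg/L. DESeq2 called 7 and 924 at 0.1 mg/L and 6 and 768 at 10 mg/L against CTRL, 4 and 762 at 1 against 0.1 mg/L, and 289 and 614 of all genes at 10 against 0.1 and against 1 mg/L. Without a filter 2 genes of the set were called at 0.1 mg/L and 1 at 10 mg/L against CTRL, 0 at 1 against 0.1 mg/L, and 1 and 167 at 10 against 1 mg/L. A minimum of 5 CPM left 91 of all genes at 10 against 0.1 mg/L. At 10 against 1 mg/L, DESeq2 size factors and upper-quartile scaling each gave 3 genes of the set, and protein-coding genes alone gave 3 and 144. Upper-quartile scaling made 58.5% of the genes called at 1 mg/L against CTRL higher, in place of 43.9%, with 1 rise and 13 falls in the set. Protein-coding genes alone made 69.4% of calls at 10 against 1 mg/L higher, in place of 81.3%.

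With a replicate block, the set had 3, 18, 2, 2, 0 and 4 calls in the 6 comparisons in the order above, so the count at 1 against 0.1 mg/L went to 2 in place of 1. Libraries of the same number showed no uniform pairing (correlation of deviations -0.299 to 0.510 over 24 same-number pairs, 8 of them over 0.1). Between the 1 and 10 mg/L pools the correlation was 0.465, 0.154, -0.148 and 0.510 for libraries 1 to 4. Whether the numbers mark a shared batch was not tested. Leaving out 1 library at a time gave 2 to 3 genes of the set and 159 to 294 of all genes at 0.1 mg/L against CTRL, 12 to 19 and 1972 to 4492 at 1 mg/L, and 1 to 2 and 97 to 210 at 10 mg/L. Between treated pools it gave 0 to 1 and 176 to 430 at 1 against 0.1 mg/L, 0 and 81 to 146 at 10 against 0.1 mg/L, and 0 to 6 and 70 to 442 at 10 against 1 mg/L. No called fold change of the 13 genes chosen by the rule above changed sign under any of these settings. This does not cover the genes given per library after their values were seen. Of those, Kng1 at 1 mg/L against CTRL had -0.05 with all libraries, not called. It had 0.44 without the 3 libraries, called higher.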
